A study of Mus musculus with 130 samples.

Results

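The early and later BXD strain sets were compared in the liver. BXD strains are recombinant inbred mice bred from C57BL/6J and DBA/2J, and each strain holds a fixed mixture of both parental genomes. The early set comprised the 27 strains numbered BXD1 to BXD42, named with the breeder suffix Ty or TyJ. The later set comprised 28 strains numbered BXD43 to BXD100, with the suffix RwwJ. Together they gave 55 of the 130 liver libraries of the series, and each strain was represented by 1 mouse. The strain numbers in the labels set which strains belong to each set. One exclusion rests on a measured value, since the library labelled BXD65 was left out because its summed level of 4 Y-linked genes was 3.93 CPM (normalised counts scaled to a library of 1000000) although the label gives a male, against 137 to 239 CPM in the 55 strains kept.

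According to the labels, every mouse was male and ate chow for 4 weeks, then a diet with 2% carbonyl iron (20000 ppm) for 6 weeks. No BXD mouse on another diet was analysed here, so a level cannot be separated into what a strain carries at rest and how it answers iron. The labels give neither age nor a batch or date. BXD24 is listed as BXD24/TyJ-Cep290<rd16>/J, a line with a retinal degeneration mutation, and BXD48a is a sister strain of BXD48. With 1 mouse per strain, the difference between strains and the difference between mice of a strain cannot be told apart. The parents C57BL/6J and DBA/2J, 1 mouse each on the same diet, served only to place the strains.

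Recombinant inbred strains are made by crossing 2 inbred strains and then mating brothers with sisters until each line is homozygous. BXD1 to BXD32 were derived first and BXD33 to BXD42 in a later period from the same cross, while BXD43 to BXD100 came from stocks of the parents kept many generations longer, most of them after an advanced intercross that adds recombinations. Sets bred apart in this way can differ in which parental alleles became common by chance, and in mutations that arose in the parental stocks between the breeding periods. In iron-loaded liver the hepatocyte senses iron through bone morphogenetic protein signals from sinusoidal endothelial cells and answers with hepcidin, the hormone that closes the iron exporter ferroportin.

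Total counts ran from 10.2 to 20.57 M per early library and from 9.41 to 14.7 M per later library (M, 1000000 counts), and the means lay within the spread between strains (12.7 ± 2.01 against 12.9 ± 1.33 M, SD, n = 27 and 28, permutation test, adjusted p = 0.717 over 15 measures). Hepatocyte markers led in both sets, with a mean albumin (Alb) level of 77141 and 80809 CPM. Of the 12 exocrine pancreas markers, whose organ lies beside the liver, 9 were at 0 counts in more than 27 of the 55 libraries. The labels give no day of extraction and no sequencing run, so a batch that a strain set might share was not tested.

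Few liver transcripts separated the sets. Of 13269 genes tested, 4 differed at an adjusted p under 0.05 (edgeR quasi-likelihood test, Benjamini-Hochberg), which is 0.0301% of the genes. Of these, 3 (0.0226%) were higher in the early strains, namely the major urinary protein genes Mup11 and Mup17 and the NF-kappaB regulator Nkiras1. The only gene called lower (0.00754%) was Tspan2, which encodes a membrane protein of the tetraspanin family. At an unadjusted p under 0.05 there were 1315 genes (9.91%), 664 higher (5.0%) and 651 lower (4.91%), and the median log2 difference over all genes was 0.0079. Throughout, a positive log2 difference means higher in the early strains.

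The 4 calls rested on narrow margins. DESeq2 called 25 genes on the same counts, and limma on log2(TPM + 1) called 0 of 13269, with 1130 at an unadjusted p under 0.05. When 1 strain at a time was left out, the count lay between 0 and 15. It was 0 without any of BXD11, BXD15, BXD18, BXD19, BXD31, BXD40, BXD48a, BXD49, BXD50, BXD51, BXD55, BXD60, BXD62, BXD67, BXD69, BXD71, BXD73, BXD79 or BXD87, 1 to 3 without BXD12, BXD14, BXD21, BXD24, BXD28, BXD33 or BXD61, and 6 or more without BXD5, BXD6, BXD32, BXD38, BXD39, BXD63, BXD66, BXD70 or BXD86.

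Mup11 and Mup17 belong to a cluster of major urinary protein genes on chromosome 4. These genes encode small lipocalins that male mice make in the liver under growth hormone and testosterone, secrete into urine and use as scent signals. Mup11 (ENSMUSG00000073834, minus strand) spans chr4:60658466-60662411 and Mup17 (ENSMUSG00000096688, minus strand) spans chr4:61591929-61595871 in GRCm38, and their starts lie 0.933 Mb apart. The members of the family are near copies of each other. The stretches before the RefSeq starts of Mup11 (chr4:60662396-60662645, minus strand) and Mup17 (chr4:61595833-61596082, minus strand), taken from RefSeq on GRCm38.p6, reach 16 and 39 bases into the genes as GENCODE places them. They show how alike the pair is, with the longest run of bases shared by both in capitals, 154 bases of the 250:
Mup11: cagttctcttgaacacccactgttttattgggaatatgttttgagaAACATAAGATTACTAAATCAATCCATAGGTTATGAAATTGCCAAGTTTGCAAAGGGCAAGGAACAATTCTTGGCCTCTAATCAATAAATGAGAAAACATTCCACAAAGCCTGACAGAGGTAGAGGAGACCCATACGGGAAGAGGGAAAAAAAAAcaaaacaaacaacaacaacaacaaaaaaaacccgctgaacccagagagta
Mup17: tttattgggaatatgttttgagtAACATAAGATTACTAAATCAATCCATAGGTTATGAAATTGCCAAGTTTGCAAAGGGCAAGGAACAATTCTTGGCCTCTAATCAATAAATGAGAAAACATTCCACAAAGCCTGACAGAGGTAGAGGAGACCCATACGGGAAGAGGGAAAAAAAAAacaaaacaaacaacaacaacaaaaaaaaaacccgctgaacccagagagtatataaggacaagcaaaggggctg
Of 228 aligned bases of the pair, 225 were identical (98.7%). These stretches lie mostly before the genes, and the transcripts themselves were not compared. Reads from near copies can be split between genes by the quantifier, so the level of each single Mup gene is uncertain.

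Mup11 was at 0 to 1333 CPM in the early strains with a median of 8.22, and at 0 to 33.4 CPM in the later strains with a median of 0.463. BXD14 (1333 CPM) and BXD19 (1092.5 CPM) stood far above the other early strains, which reached 47.1 CPM at most, and the sets overlapped. The fitted log2 difference was 4.34 ± 0.89 (SE, adjusted p = 0.0403). In the parents it was at 1.22 CPM in C57BL/6J and 78.8 CPM in DBA/2J.

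Mup17 was at 0 to 237 CPM in the early strains with a median of 2.29. In the later strains it was at 0 to 9.46 CPM with a median of 0, and it had 0 counts in 17 of 28 later and 9 of 27 early strains. The highest values again came from BXD19 (237 CPM) and BXD14 (110 CPM), with BXD39 next at 43.4 CPM. The log2 difference was 3.76 ± 0.77 (SE, adjusted p = 0.0403). C57BL/6J had 0 CPM and DBA/2J 11.6 CPM. On the log2 scale 15 of 27 early and 8 of 28 later strains lay nearer to DBA/2J.

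Both differences were smaller without BXD14 and BXD19. In a fit without this pair, an omission chosen after seeing the data, the log2 difference was 1.03 for Mup11 (adjusted p = 0.66) and 2.32 for Mup17 (adjusted p = 0.268). It called 0 genes of 13283, with 1178 at an unadjusted p under 0.05. Each of Mup11 and Mup17 was called in 35 of the 55 fits that left out 1 strain.

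Of the 15 Mup genes tested, 14 had a positive difference, and their median was 1.41 against 0.0079 over all genes. At an unadjusted p under 0.05 there were 9 (60%), all higher in the early strains, while 2 passed the adjusted test. Over all genes, 7099 of 13269 differences were positive, 9.91% had an unadjusted p under 0.05 and 0.0301% passed the adjusted test. Mup20, also called darcin, the pheromone that draws females, was at 2.41 to 7158 CPM in the early strains (median 130.5) and at 1.58 to 1996 CPM in the later strains (median 22.01), with an adjusted p of 0.21. Mup3 had medians of 522.8 and 94.3 CPM (adjusted p = 0.48), and Mup7 of 5.23 and 0.336 CPM (adjusted p = 0.402), with a log2 difference of 2.56 that became -1.57 without BXD14 and BXD19. Mup19 gave an adjusted p of 0.114 with edgeR and 7.5e-09 with DESeq2. Mup1 was the member with a negative difference (-0.89, adjusted p = 0.829). This grouping of all Mup genes was made after their values were seen.

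Genes whose liver level is known to be higher in males were listed as well. Of 15 male-biased genes, 5 of them from the Mup family, 13 had a positive difference, 6 had an unadjusted p under 0.05 and 1 (Mup17) was called. The median of these 15 was 0.71. Among all 13269 genes, 7099 had a positive and 6170 a negative difference, 9.91% had an unadjusted p under 0.05 and 0.0301% were called. Of the 10 outside the Mup family, 9 had a positive difference (median 0.57), 2 an unadjusted p under 0.05, and 0 were called. Hsd3b5, a hydroxysteroid dehydrogenase of male liver, ranged from 0 to 90.3 CPM in the early and from 0 to 54.0 CPM in the later strains (log2 difference 1.12 ± 0.72, SE, adjusted p = 0.631). Elovl3, a fatty acid elongase, had a log2 difference of 1.09 (adjusted p = 0.502). Of 16 female-biased genes, 11 had a negative difference, with a median of -0.19. They included Cyp3a41a, a female-predominant cytochrome P450 (-2.15 ± 0.72, SE, adjusted p = 0.27), and Hao2, a peroxisomal oxidase (-1.88 ± 0.54, SE, adjusted p = 0.177). All 55 libraries carried Y-linked transcripts, as given above.

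**Figure D1:**
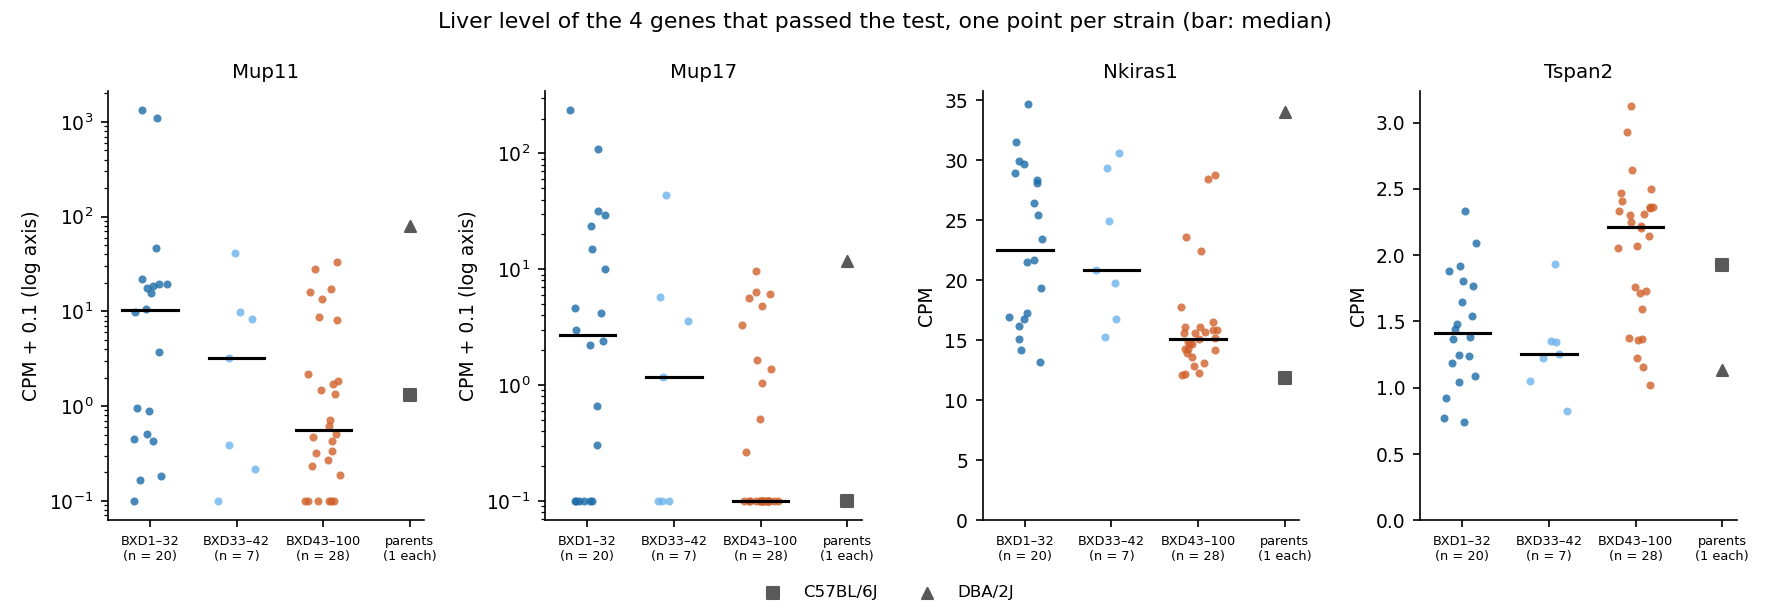
Level of the 4 called genes in CPM, with 1 point per strain, in BXD1 to BXD32 (20 strains), BXD33 to BXD42 (7) and BXD43 to BXD100 (28), the median as a bar and each parent as a grey symbol. Mup11 and Mup17 are on a log axis after adding 0.1 CPM. All 4 genes overlap between the sets, and most later strains lie near the C57BL/6J value of Nkiras1 while the early strains spread up to the DBA/2J value.

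Nkiras1 (ENSMUSG00000021772, chr14:18271136-18284003, plus strand, GRCm38) encodes a small Ras-like protein that binds I-kappaB and holds back NF-kappaB. Its level was 13.2 to 34.7 CPM in the early strains with a median of 21.7, and 12.1 to 28.7 CPM in the later strains with a median of 15.1. The later strains were packed together. Of the 28, 24 lay between 12.1 and 17.7 CPM, and BXD48a, BXD44, BXD48 and BXD75 lay higher. The mean was 22.8 ± 6.31 CPM in the early and 16.3 ± 4.33 CPM in the later strains (SD, n = 27 and 28), a 1.40-fold difference (log2 difference 0.49 ± 0.10, SE, adjusted p = 0.0403). C57BL/6J stood at 11.9 CPM and DBA/2J at 33.98 CPM. Nearer to DBA/2J were 16 of 27 early strains but 4 of 28 later strains. Nkiras1 was called in 33 of 55 fits without 1 strain and missed the threshold in the limma fits (adjusted p = 0.274 on log2(TPM + 1)) and without BXD33 to BXD42 (0.0534). Rela, the p65 subunit of NF-kappaB, was at 30.6 to 50.3 CPM in the early and 26.99 to 42.5 CPM in the later strains, with an adjusted p of 0.0732.

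Tspan2 (ENSMUSG00000027858, chr3:102734529-102801513, plus strand, GRCm38) was a lowly expressed gene, at 0.743 to 2.33 CPM in the early strains (median 1.35) and 1.02 to 3.12 CPM in the later strains (median 2.21). The means were 1.40 ± 0.41 and 2.05 ± 0.54 CPM (SD, n = 27 and 28), with a log2 difference of -0.54 ± 0.11 (SE, adjusted p = 0.0423). The sets overlapped over most of their range. C57BL/6J was at 1.92 CPM and DBA/2J at 1.13 CPM. It was called in 26 of 55 fits without 1 strain, not by limma (adjusted p = 0.41 on log2(TPM + 1)), and not without BXD33 to BXD42 (0.122).

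Several genes just missed the threshold, and they were named after their values were seen. Hexa, which encodes a subunit of a lysosomal enzyme that breaks down gangliosides, was at 17.3 to 62.02 CPM (median 35.9) in the early and 31.8 to 74.3 CPM (median 55.6) in the later strains, with a log2 difference of -0.42 ± 0.10 (SE, adjusted p = 0.0732). DESeq2 gave it an adjusted p of 0.0229. Across 20 lysosomal enzymes and membrane proteins, listed after values were seen, 17 had a negative difference and 6 an unadjusted p under 0.05, with a median of -0.083. For comparison, 6170 of all 13269 genes had a negative difference and 9.91% an unadjusted p under 0.05. Rnf128, a ubiquitin ligase, had a log2 difference of -0.19 ± 0.04 (SE, adjusted p = 0.0564) and was called in 14 of 55 fits without 1 strain.

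The early set itself holds 2 breeding periods. A fit with 3 groups compared BXD1 to BXD32 (20 strains), BXD33 to BXD42 (7) and BXD43 to BXD100 (28) over 14366 genes. BXD1 to BXD32 against the later strains gave 16 called genes (0.111%), 6 higher and 10 lower, with 1408 genes (9.8%) at an unadjusted p under 0.05. BXD33 to BXD42 against the later strains gave 1 (0.00696%), with 1045 unadjusted (7.27%). BXD1 to BXD32 against BXD33 to BXD42 gave 0 (0.0%) with edgeR and also with DESeq2, with 859 unadjusted in edgeR (5.98%). A group of 7 strains has less power than one of 20, so these counts do not show that BXD33 to BXD42 resemble the later strains. Among the 16 genes were Mup11, Mup17, Mup15 and Nkiras1, again higher, and Rnf128 and Ptpn14, a protein tyrosine phosphatase, lower.

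Wdfy1, which encodes an endosomal adaptor of Toll-like receptor signalling, was among the 6 called higher. BXD1 to BXD32 were all at 22.2 to 40.7 CPM. In BXD33 to BXD42 it was at 11.6 CPM in BXD38 and at 20.8 to 29.3 CPM in the other 6 strains. The later strains fell into 2 ranges, 15 strains at 9.92 to 15.2 CPM and 13 strains at 23.8 to 33.4 CPM. C57BL/6J was at 12.8 CPM and DBA/2J at 24.4 CPM. So all 20 strains of the first period lay in the upper range, which holds DBA/2J, together with 6 of the 7 of the second period and 13 of 28 later strains. BXD1 to BXD32 against the later strains gave a log2 difference of 0.67 ± 0.14 (SE, adjusted p = 0.0281), while the whole early set gave 0.57 ± 0.13 (SE, adjusted p = 0.085).

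Hoxb1, a homeobox gene of hindbrain patterning, was near silent in every early strain except BXD6. In BXD1 to BXD32 it was at 0 to 0.515 CPM in 19 strains and at 4.45 CPM in BXD6, and in BXD33 to BXD42 at 0.080 to 0.475 CPM. Of the later strains, 15 were at 0.103 to 0.672 CPM and 13 at 3.16 to 7.73 CPM. No strain lay between these ranges. Both parents lay in the lower range, C57BL/6J at 0.175 CPM and DBA/2J at 0.378 CPM. The split of the later strains followed the numeric order of the library titles. All 15 low later strains (BXD75 to BXD43) came before all 13 high ones (BXD61 to BXD51). BXD6 fell in the stretch of the high ones, as did DBA/2J and early strains that were low, such as BXD11. What this order stands for is not given in the labels, and its part in the split was not tested. The log2 difference of BXD1 to BXD32 against the later strains was -2.51 ± 0.52 (SE, adjusted p = 0.024). The gene passed the count filter of the 3-group fit but not that of the whole early set.

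The sulfotransferases Sult2a1, Sult2a2 and Sult2a3, which sulfate steroids and bile acids, were also called lower in BXD1 to BXD32. Sult2a1 was at 0 to 4.58 CPM in those 20 strains, at 0 to 1.93 CPM in 6 of the 7 BXD33 to BXD42 strains and at 275 CPM in BXD38. In the later strains it ranged from 0 to 282 CPM with a median of 0.082, and 8 strains were above 20 CPM. The later values were graded, not in 2 separate ranges, and the fitted log2 difference was -6.29 ± 1.25 (SE, adjusted p = 0.015). Both parents were at 0 CPM for Sult2a1. The 3 genes are near copies, so reads may be shared among them.

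**Figure D2:**
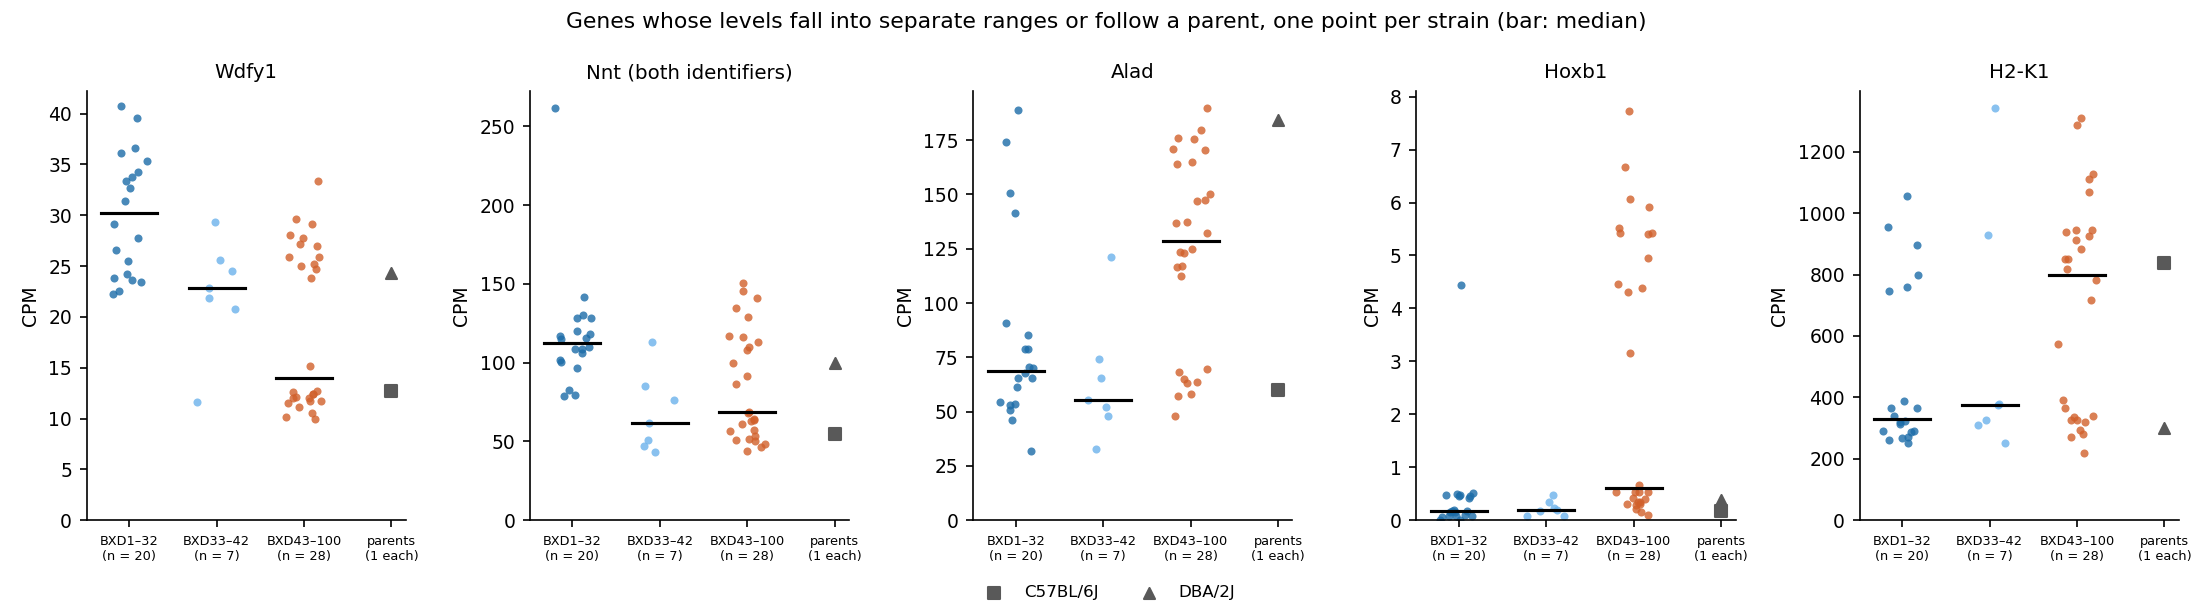
Level in CPM of Wdfy1, Nnt, Alad, Hoxb1 and H2-K1, with 1 point per strain, the median as a bar and each parent as a grey symbol. Hoxb1 and H2-K1 fall into 2 ranges, while the gap of Wdfy1 is narrower and misses the limit set in the search for such genes. The upper range of Wdfy1 holds all 20 strains of BXD1 to BXD32 but 13 of the 28 later strains.

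To see how often genes behave like Hoxb1, all 12823 genes that averaged 1 CPM or more were searched for levels in 2 separate ranges, a description made after those values were seen and with no test. A gene counted when its widest gap between neighbouring strains was at least 0.5 on the log2(CPM + 0.5) scale and at least 20% of its whole range, with at least 5 strains on each side. Wdfy1 and Alad (described further on), with gaps of 0.44 and 0.31, did not reach this limit. There were 146 such genes, 66 of them protein-coding. The share of strains in the upper range differed between the sets by a median of 10.2 percentage points over the 66. In 8 it differed by 30 points or more, and in 2, Hoxb1 and the predicted zinc finger gene Gm14403, by 40 points or more. Gm14403 was in the upper range in 25 of 27 early and 14 of 28 later strains, with C57BL/6J at 3.85 CPM and DBA/2J at 0.094 CPM.

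The other 6 of these 8 split the 55 strains in exactly one way, and 4 of them lie on chromosome 17, in or beside the major histocompatibility complex. C57BL/6J carries the H2b haplotype and DBA/2J the H2d haplotype of this region, which encodes the proteins that present peptides to T cells. H2-K1, a class I heavy chain, was at 250 to 389 CPM in 19 early strains and at 746 to 1343 CPM in 8, against 220 to 392.5 CPM in 11 later strains and 575 to 1309 CPM in 17. C57BL/6J was at 837 CPM and DBA/2J at 301 CPM. Rps18, a ribosomal protein gene of the same region, put all 55 strains on the same side as H2-K1 did. H2-Q2 and Gm8909 put all 55 on the opposite side, as did Gm10260 and Gm11361, predicted genes on chromosome 13. Where Rps18 was low (26.3 to 65.5 CPM), Gm10260 was at 51.3 to 108 CPM and Gm11361 at 59.9 to 144 CPM. Where Rps18 was high (135 to 259 CPM), they were at 0 to 0.66 and 4.11 to 18.4 CPM. H2-Ea-ps, the class II alpha gene that H2b mice do not transcribe, was at 0 to 0.206 CPM in the strains high for H2-K1 and at 2.33 to 22.6 CPM in the others. So 19 of 27 early strains (70.4%) and 11 of 28 later strains (39.3%) had the DBA/2J-like pattern. Counts were made against transcripts of the C57BL/6J reference. How far that lowers the level of DBA/2J alleles, or assigns their reads to similar genes elsewhere, was not tested. The chromosome 13 genes may therefore not be separate observations.

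H2-Aa, a class II gene, was at 5.35 to 46.6 CPM (median 17.4) in the early and 8.64 to 96.9 CPM (median 25.5) in the later strains, with a log2 difference of -0.57 ± 0.23 (SE, adjusted p = 0.376). Of 17 MHC genes tested, 12 had a negative difference, 0 were called, and 6 passed an unadjusted 0.05, 5 lower and 1 higher. Over all genes tested, 6170 of 13269 had a negative difference, 0.0301% were called and 9.91% passed an unadjusted 0.05.

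Genes known to have mutated in the parental stocks after the first BXD strains were bred were looked up as a list of 5. Nnt encodes the mitochondrial transhydrogenase that makes NADPH, and C57BL/6J carries a deletion in it that older C57BL/6 stocks lack. Nnt has 2 gene identifiers in the files (ENSMUSG00000025453 and ENSMUSG00000116207), which were added. Its summed level was 79.2 to 262 CPM (median 112.5) in BXD1 to BXD32, 43.3 to 113 CPM (median 61.9) in BXD33 to BXD42 and 43.9 to 150 CPM (median 68.4) in the later strains. C57BL/6J was at 54.6 CPM and DBA/2J at 99.7 CPM. None of the 20 strains of BXD1 to BXD32 lay nearer to C57BL/6J, while 4 of 7 strains of BXD33 to BXD42 and 15 of 28 later strains did. The value of 262 CPM in BXD18 was the highest. Tested one at a time over the whole early set, the identifiers gave log2 differences of 0.06 ± 0.15 and 0.41 ± 0.17 (SE, adjusted p = 0.931 and 0.402). That test pools BXD33 to BXD42 with BXD1 to BXD32. Neither identifier was among the 16 genes called for BXD1 to BXD32 against the later strains.

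Gpnmb, a glycoprotein of macrophages and pigment cells, has a stop mutation in present-day DBA/2J. It was at 0.257 to 1.11 CPM in 13 of 28 later strains and at 2.84 to 42.4 CPM in the other 15. The early strains spread without such a break from 0.400 to 34.5 CPM, with a median of 2.74. DBA/2J was at 0.378 CPM and C57BL/6J at 5.33 CPM, and 9 early and 13 later strains lay nearer to DBA/2J (log2 difference -0.58 ± 0.49, SE, adjusted p = 0.728). Gabra2, a GABA receptor subunit with an intronic deletion in present-day C57BL/6J, was at 0.536 to 2.19 CPM in the early and 0.382 to 1.58 CPM in the later strains (adjusted p = 0.613). Klrd1, an NK cell receptor lost in DBA/2J, had 0 to 13 counts per library and was not tested. Taar1, a trace amine receptor, had 1 count in all 55 libraries.

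**Figure D3:**
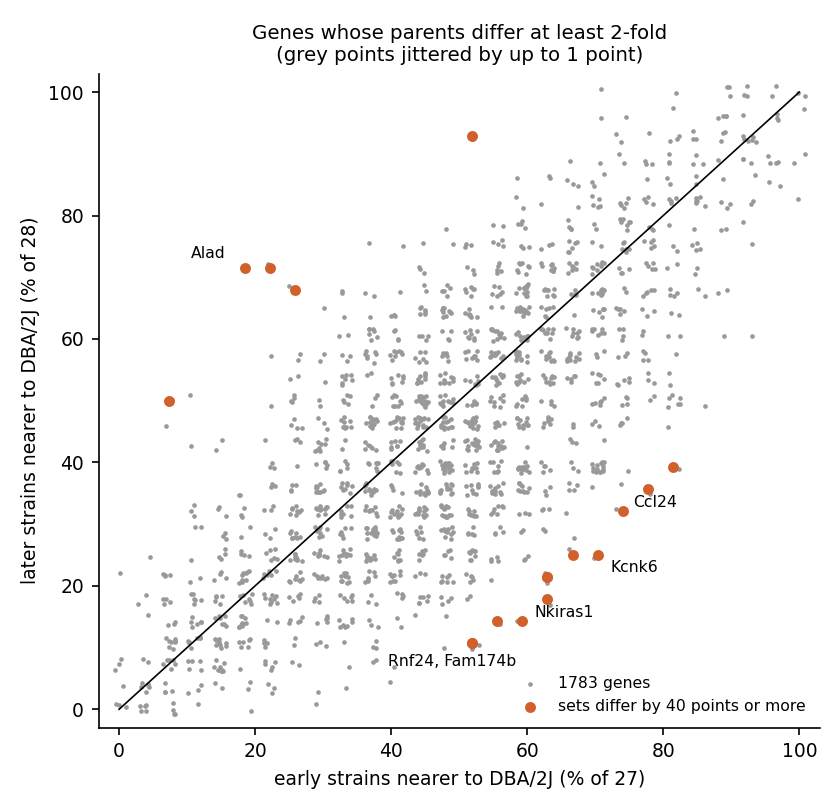
Each point is 1 of the 1783 genes whose parents differ by at least 1 on the log2 scale, placed by the percentage of the 27 early strains (x axis) and of the 28 later strains (y axis) that lie nearer to DBA/2J. Most points lie along the diagonal, and the 17 genes that differ by 40 points or more are in colour.

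Taken over all genes where the parents differed in level, the sets held similar shares of strains nearer to each parent. A level nearer to a parent does not show which allele a strain carries. Of the genes tested, 1783 had parents that differed by at least 1 on the log2 CPM scale. For these, a median of 48.15% of the early and 42.86% of the later strains lay nearer to DBA/2J. The median signed difference within a gene (early minus later) was 2.25 points, with opposite directions cancelling. Regardless of direction, the sets differed within a gene by a median of 9.39 points. In 1025 genes more of the early strains were DBA/2J-like and in 753 more of the later strains. With 1 mouse per parent, and with neighbouring genes sharing alleles, these counts are a description. The sets differed by 40 points or more in 17 genes, 8 of which were pseudogenes.

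Alad, the enzyme that joins a pair of molecules of aminolevulinate in heme synthesis, headed that list. DBA/2 mice are known to carry extra copies of it. Alad (ENSMUSG00000028393, chr4:62509169-62519918, minus strand, GRCm38) was at 31.95 to 90.6 CPM in 22 early strains and at 121 to 189 CPM in 5, namely BXD1, BXD13, BXD15, BXD22 and BXD36. In the later strains it was at 48.05 to 69.7 CPM in 8 and at 112.4 to 190 CPM in 20. The parents were at 59.98 CPM (C57BL/6J) and 184 CPM (DBA/2J). The medians were 65.4 and 129 CPM and the log2 difference -0.65 ± 0.17 (SE, adjusted p = 0.12), and DESeq2 gave an adjusted p of 0.0475. The Mup genes lie on the same chromosome, Mup11 1.85 Mb before Alad, and there 11 of 27 early and 5 of 28 later strains were nearer to DBA/2J.

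Other named genes of that list were Kcnk6, a potassium channel (19 early and 7 later strains nearer to DBA/2J), Ccl24, an eosinophil chemokine (20 and 9), Rnf24 (14 and 3) and Fam174b (14 and 3). None of these was called. Glo1, the glyoxalase that clears methylglyoxal and is duplicated in DBA/2J, was at 138 to 749 CPM (median 320) in the early and 124 to 515 CPM (median 218) in the later strains (log2 difference 0.42 ± 0.14, SE, adjusted p = 0.288). Hc, complement component C5, is deficient in DBA/2J, and 14 early and 13 later strains lay nearer to that parent. Tpm3-rs7 was at 0 to 1.71 CPM in 17 early and 12 later strains and at 26.996 CPM or more in all others.

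No gene of iron handling was called. Hamp, which encodes hepcidin, was at 562 to 1339 CPM in the early strains (median 875) and 540 to 1164 CPM in the later strains (median 776), with means of 867 ± 191 and 788 ± 186.4 CPM (SD, n = 27 and 28). The log2 difference was 0.14 with a 95% confidence interval of -0.039 to 0.32 (adjusted p = 0.63). Hamp2, its duplicated neighbour, varied far more, from 82.3 to 3094 CPM in the early and from 65.1 to 2866 CPM in the later strains, and 12 and 14 strains were nearer to DBA/2J (1036 CPM) than to C57BL/6J (113 CPM). Its log2 difference was 0.0039 with an interval of -0.94 to 0.95. The DBA/2J mouse itself had 237 CPM of Hamp, below all 55 strains.

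Upstream of hepcidin, the ligands made by sinusoidal endothelium had negative differences that did not pass the test. Bmp6, the ligand that reports iron stores, was at 7.34 to 34.8 CPM (median 20.0) in the early and 14.99 to 36.4 CPM (median 24.3) in the later strains, with a log2 difference of -0.30 ± 0.12 (SE, adjusted p = 0.381). Bmp2 gave -0.31 ± 0.13 (SE, adjusted p = 0.402). Tfr2, the receptor that senses transferrin iron, gave 0.12 ± 0.05 (SE, adjusted p = 0.421). Hfe, the hemochromatosis protein, the protease Tmprss6, the receptors Bmpr1a, Acvr1, Acvr2a and Bmpr2 and the coreceptor partner Neo1 differed by -0.063 to 0.057. Of the 10 members tested, 0 were called, and Bmp6, Bmp2 and Tfr2 passed an unadjusted 0.05. The shares over all genes were 0.0301% called and 9.91% at an unadjusted 0.05. Summed levels of sinusoidal endothelial markers ran from 226 to 638 CPM in the early and from 269 to 643 CPM in the later strains (438 ± 122 against 490 ± 94.4, permutation test, adjusted p = 0.286), and their part in the Bmp6 and Bmp2 values was not tested.

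Among the targets of that pathway, Id1, a transcriptional inhibitor induced by BMP signals, had a log2 difference of 0.16 ± 0.12 (SE, adjusted p = 0.695), Id2 0.18 and Id3 0.17, and the inhibitors of the pathway Smad6 0.10 and Smad7 0.067. Of 7 targets tested, 6 had a positive difference and 0 were called, against 7099 positive of all 13269 genes and 0.0301% called. Among iron storage, export and uptake genes, the ferritin chains Fth1 and Ftl1 both gave 0.053. Slc40a1, which encodes ferroportin, was at 187 to 515 CPM (median 363) in the early and 281 to 628.6 CPM (median 398) in the later strains (log2 difference -0.17 ± 0.09, SE, adjusted p = 0.517). Slc39a14, the importer of iron that is not bound to transferrin, gave 0.24 ± 0.10 (SE, adjusted p = 0.419), and its relative Slc39a8 -0.13. Tfrc, the transferrin receptor, ranged from 4.79 to 101.5 CPM and from 5.72 to 63.45 CPM, so that its interval for the log2 difference reached from -0.45 to 0.61. Of the 17 genes of this list and of the 17 heme genes, 0 were called. Alas1, the first enzyme of heme synthesis, gave -0.087 and Hmox1, which breaks heme down, -0.072.

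**Figure D4:**
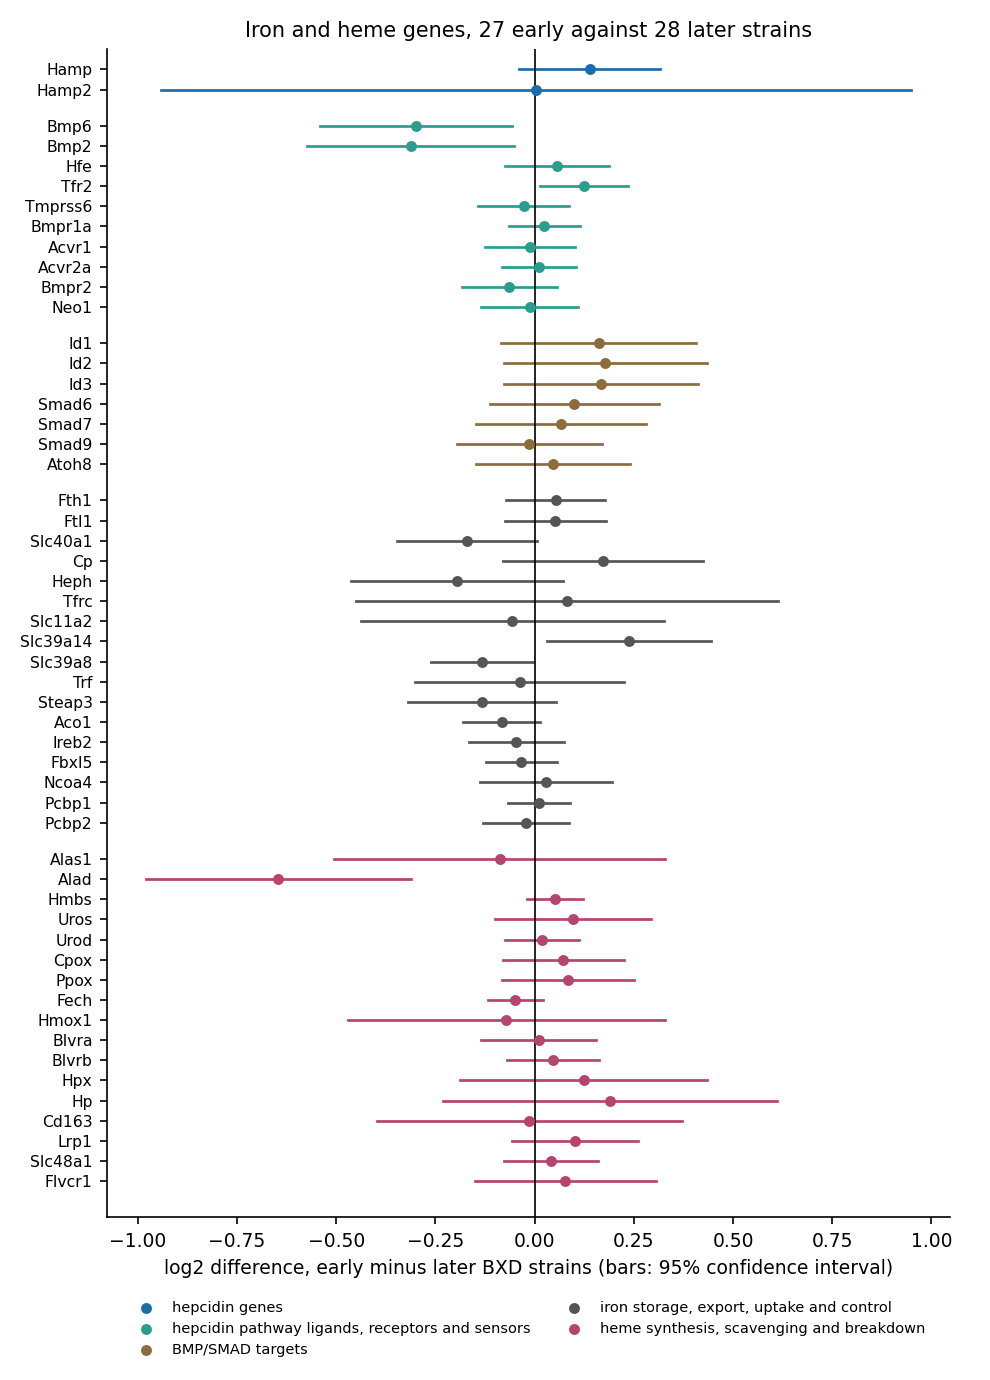
Log2 difference, early minus later strains, with its 95% confidence interval, for the hepcidin, BMP, iron and heme genes tested, coloured by list. Alad has the largest difference (-0.65) and Hamp2 the widest interval among these genes.

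In the lists of cell type and pathway genes that follow, no member was called. Over all genes tested, 7099 of 13269 differences were positive and 6170 negative, 9.91% had an unadjusted p under 0.05 and 0.0301% were called. Of 19 genes of Kupffer cells and other macrophages, 17 had a negative difference with a median of -0.19, and 0 were called. The 4 that passed an unadjusted 0.05, all lower, included Clec4f, a lectin of Kupffer cells, at 64.5 to 191 CPM (median 103.1) and 75.2 to 180 CPM (median 120), and the macrophage marker Adgre1 (log2 difference -0.39 ± 0.14, SE, adjusted p = 0.308). The summed macrophage level was 452 to 1353 CPM in the early and 472 to 1515 CPM in the later strains (permutation test, adjusted p = 0.305). Of 10 sinusoidal endothelial genes, 9 had a negative difference (median -0.18), among them Stab1, a scavenger receptor (-0.22, adjusted p = 0.421). Fewer cells of a type and less RNA per cell cannot be told apart in bulk liver.

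Of 16 genes of stellate cells and fibrosis, 13 had a negative difference with a median of -0.27. At an unadjusted p under 0.05 there were 8, of which 7 were lower, among them the matrix genes Lum (-0.52 ± 0.13, SE, adjusted p = 0.114) and Col1a2 (-0.38 ± 0.17, SE, adjusted p = 0.428). The summed level of the list went the opposite way, 4349 ± 993 CPM in the early and 3867 ± 637 CPM in the later strains (permutation test, adjusted p = 0.173). That sum was mostly fibronectin (Fn1, means of 4011 and 3457 CPM), which hepatocytes also make.

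Acute phase genes mostly encode plasma proteins that the liver makes in inflammation. Of 16, 0 were called and 12 had a positive difference with a median of 0.19, and 5 had an unadjusted p under 0.05, all of them higher. They were the fibrinogen chains Fga (0.42), Fgb (0.41) and Fgg (0.38), the protease inhibitor Serpina3n (0.47) and the cytokine feedback gene Socs3 (0.50), with adjusted p-values of 0.177, 0.177, 0.212, 0.288 and 0.347. Fgb was at 3607 to 12229 CPM (median 6325) in the early and 2206 to 8511 CPM (median 4845) in the later strains. The 6 neutrophil genes tested had a median of 0.89, and their summed level overlapped between the sets, at 3.03 to 174 CPM and 4.13 to 126 CPM (permutation test, adjusted p = 0.372). Of 23 cholesterol synthesis genes, 21 had a positive difference (median 0.14) and 0 an unadjusted p under 0.05. Of 20 interferon-stimulated genes, 17 did (median 0.15), again with 0.

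**Figure D5:**
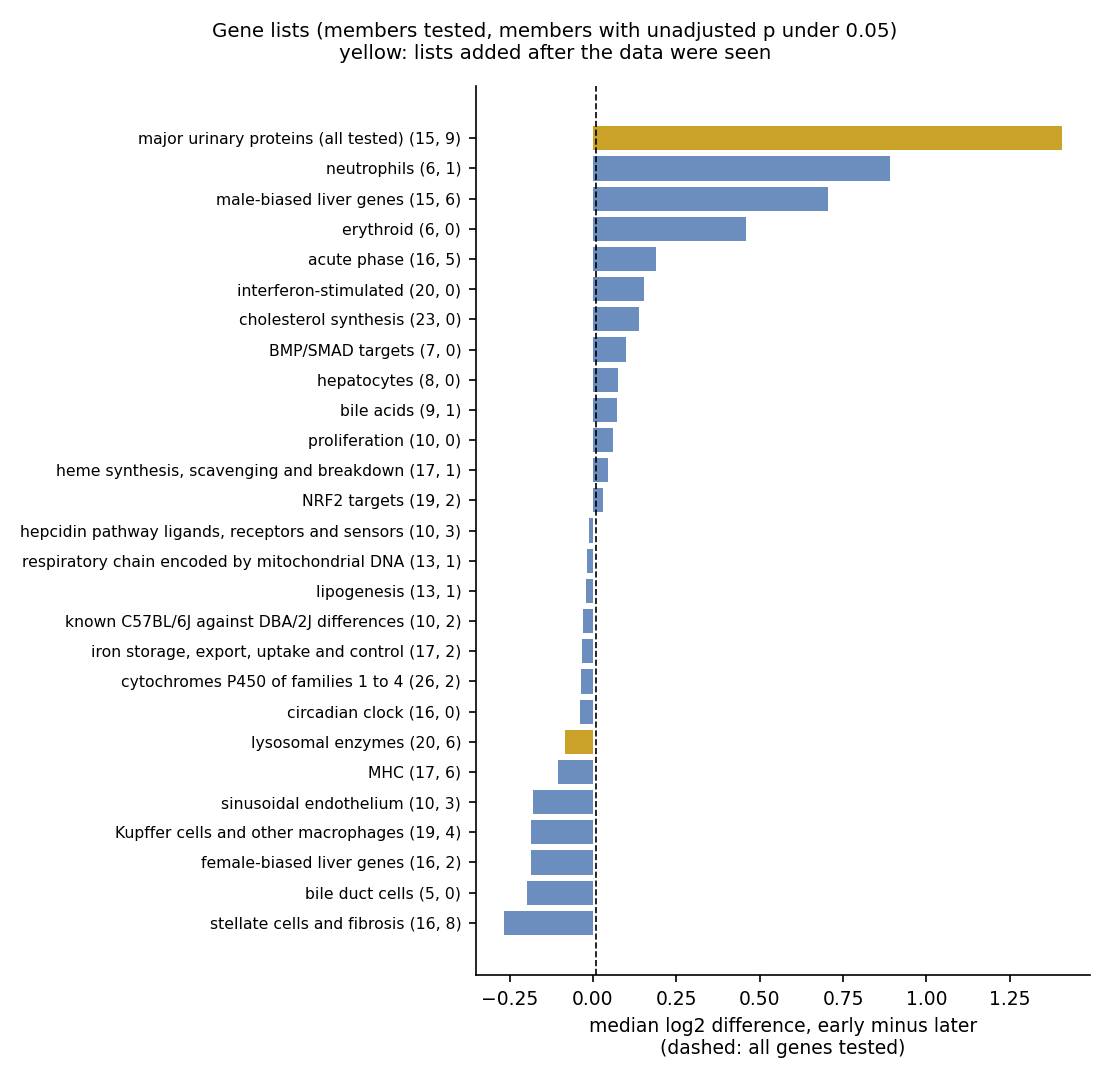
Median log2 difference, early minus later strains, of each list with at least 5 members tested, with the number tested and the number at an unadjusted p under 0.05 beside its name. The major urinary proteins lie highest (1.41) and the genes of stellate cells and fibrosis lowest (-0.27), and yellow bars are lists added after the data were seen.

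Principal components placed the strains by other patterns first. The first component held 17.3% of the variance over 11600 genes and was led by Mup10, Mup1 and Mup16 on one side and by Sult3a1 and Sult1e1 on the other. BXD14 lay highest and BXD74 lowest, and the means of the sets lay within their spread (permutation test, adjusted p = 0.398). On the third component, with 5.88% of the variance, the early strains lay at -33.2 to 16.3 (mean -5.70 ± 12.01) and the later strains at -16.2 to 22.5 (mean 5.50 ± 11.4, permutation test, adjusted p = 0.0111). It was the only one of the 15 measures with an adjusted p under 0.05, and the sets still overlapped on it. Its leading genes included Cyp2b13, Hdc and Corin on the later side, and Mup7, Mup10 and Hbb-bt on the early side.

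The early strains also varied a little more among themselves. The SD of log2 CPM over strains had a median of 0.316 in the early and 0.288 in the later set, and it was larger in the early set for 8883 of 13269 genes (66.9%). It was over 2 times larger there for 41 genes and less than 0.5 times as large for 13. Some of the widest gaps came from 1 strain. Magi1, a scaffold protein of cell junctions (SD 1.43 against 0.209), was at 0.093 CPM in BXD28 and at 28.3 to 48.5 CPM in the other early strains, against 27.7 to 49.3 CPM in the later strains. Cox8a, a subunit of cytochrome c oxidase (1.39 against 0.151), was at 0.643 CPM in BXD42 and at 85.2 to 148 CPM in the other early strains, against 93.0 to 146 CPM in the later strains. Psd3 (0.212 against 0.613) was at 9.404 CPM in the later strain BXD66 and at 62.2 to 116 CPM in the other later strains. The spread was described and not tested.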

How the data were processed

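Liver RNA of 55 BXD strains, 1 male mouse each, was analysed, with the parents C57BL/6J and DBA/2J beside them. Per the submitters' processing notes, kallisto 0.46 and mm10 were used. The name of the deposited tables points to a release of Ensembl, and how reads were trimmed, and whether strand was used in counting, is not given in the sources used here. The authors deposited expected counts per gene, which are not normalized and were rounded to whole numbers here. The authors also deposited TPM values of the same libraries, which served for alternatives only. Symbols and positions came from GENCODE M21 (GRCm38), which matched 35612 of 35711 identifiers, and promoter stretches from RefSeq on GRCm38.p6.

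Genes were tested with edgeR 4.0.16 (glmQLFit and glmQLFTest, TMM factors, filterByExpr) in R 4.3.3, two-sided, with Benjamini-Hochberg adjustment and a threshold of 0.05, in a fit of the 27 early and 28 later strains without covariates. Adjusted p-values of genes come from this fit unless DESeq2 1.42.0, limma 3.58.1 or the 3-group fit is named. Printed CPM used TMM factors over these libraries, BXD65 and the parents. Log2 CPM for parents, spread and components used a prior count of 2. A strain counted for the parent with the nearer log2 CPM. Two-sided permutation tests of 15 measures drew 100000 resamples. Python 3.11.15 with numpy 2.4.6, scipy 1.17.1 and pandas 2.3.3 was used, with matplotlib 3.10.9 for figures.

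Members and gene lists were chosen with earlier results of these data known. The rule for named genes took, in the comparison of the sets, called protein-coding genes averaging 1 CPM or more (10 by p, 5 by size in each direction), all hepcidin, iron and drift genes, called members of any list, and the 3 smallest p in each direction for the 3 groups. Some genes under the rule are given only in counts or are not reported here. Genes outside it were picked once their values had been seen, as were the Mup and lysosomal groupings and the search for genes in 2 ranges. The replicate is the strain. P-values weigh a difference between groups against the spread between these mice. Alternatives comprised DESeq2, RLE factors, limma with 1 or 0.1 added to TPM before log2, other count filters, BXD65 put back, fits without BXD33 to BXD42, BXD48a, BXD24 or each strain in turn, all panel groups in one fit, a prior count of 0.5 and a gap of 2 Mb for blocks.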

Additional observations from a re-analysis of the deposited data

Results flagged for a closer look

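Among the 7 strains BXD33 to BXD42, 3 values lay farther from the rest than Dixon's 95% critical ratio of 0.568 allows. BXD39 had 43.4 CPM of Mup17 and 41.5 CPM of Mup11, and BXD34 had 2.19 CPM of Gabra2. The check covered 15 genes only, and strains of BXD33 to BXD42 stood apart at other genes too. Sult2a1, for example, was at 275 CPM in BXD38 and at most 1.93 CPM in the others. The ratio lets about 1 in 20 such groups stand out by chance where values are normally distributed. That was not checked for these CPM values, so the rate here is not known. After BXD39, the next highest strains of BXD33 to BXD42 had 5.71 CPM of Mup17 and 9.68 CPM of Mup11.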

How the results depend on the processing

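The count of 4 called genes, 3 higher and 1 lower, stayed at 4 with RLE factors. It was 25 with DESeq2 (12 higher, 13 lower), 0 with limma on log2(TPM + 1) and on log2(TPM + 0.1) (1130 and 1142 genes at an unadjusted p under 0.05), 7 with BXD65 put back (4 higher, 3 lower), 8 without BXD33 to BXD42 (6 higher, 2 lower), 17 with no filter on low counts (10 higher, 7 lower), 0 with at least 10 counts in every library (1106 unadjusted), 0 without BXD48a (1251 unadjusted), 3 without BXD24 (3 higher, 0 lower), 17 with all panel groups in one fit (12 higher, 5 lower) and, as an omission chosen after seeing the data, 0 without BXD14 and BXD19 (1178 unadjusted). Leaving out 1 strain at a time gave 0 to 15 called genes, 0 to 8 higher and 0 to 7 lower. The causes were not tested. Of the 4 genes, DESeq2 also called Nkiras1 and Tspan2 but not Mup11 or Mup17. In the 3-group fit, BXD33 to BXD42 against the later strains gave 3 genes with DESeq2, and BXD1 to BXD32 against the later strains 14 with RLE factors and 22 with DESeq2. The 4 called genes kept their direction under every alternative run, while 17 of 88 uncalled genes that were followed, not all of them named here, changed sign under at least 1. With a prior count of 0.5 the median signed difference in strains nearer to DBA/2J was 2.18 points, and the median absolute difference 9.39 points. No paired analysis was possible because the replicate numbers of the strains carry no pairing. Each strain had 1 library, so strain and mouse cannot be told apart, and the smallest called difference was 0.49 on the log2 scale (Nkiras1).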

Other observations

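The 1 gene called between BXD33 to BXD42 and the later strains was E030018B13Rik, a RIKEN clone gene annotated as protein-coding on chromosome 7. It was at 0.316 to 11.1 CPM (median 5.35) in BXD33 to BXD42, at 0.068 to 7.56 CPM (median 0.334) in BXD1 to BXD32 and at 0 to 3.55 CPM (median 0.469) in the later strains (log2 difference 3.15 ± 0.59, SE, adjusted p = 0.0259).

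Some genes in 2 ranges had both parents on one side. Cdk5rap1, an enzyme that modifies transfer RNA in mitochondria, was at 14.5 to 21.3 CPM in 5 early and 10 later strains and at 3.46 to 8.91 CPM in the others, with C57BL/6J at 5.16 CPM and DBA/2J at 4.53 CPM. Ak6, an adenylate kinase, was at 4.05 to 6.74 CPM in BXD13 and 8 later strains and at 11.2 CPM or more in all others, with the parents at 18.97 and 21.7 CPM. Cd36, a fatty acid transporter that was not among the genes in 2 ranges, had medians of 66.5 CPM in the early and 82.3 CPM in the later strains (adjusted p = 0.114, and 0.0386 with DESeq2).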
